A study of Mus musculus with 8 samples.

Results

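The 9 genes described here form a set named for the GABAergic lineage and GABA synthesis: the GABA-synthesising enzymes Gad1 and Gad2, the vesicular transporter Slc32a1, the glycine transporter Slc6a5, and the transcription factors Lhx1, Lhx5, Ptf1a, Tfap2a and Tfap2b. Of these, Lhx1 was not confined to GABAergic nuclei in these data. They were taken by symbol from the 32285 genes counted in each library, and all 9 were found. GABAergic neurons of the cerebellum arise from ventricular zone progenitors that express the bHLH factor Ptf1a, whereas granule neurons arise from the rhombic lip. Postmitotic GABAergic precursors turn on the LIM homeodomain factors Lhx1 and Lhx5, and those of the interneuron lineage express Pax2. The enzymes encoded by Gad1 and Gad2 both make GABA from glutamate, Slc32a1 loads GABA or glycine into synaptic vesicles, and Slc6a5 takes up glycine at the terminals of glycinergic neurons, among them many cerebellar interneurons that release both transmitters.

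The study sequenced nuclei of the paraflocculus/flocculus (PF/F), lateral lobules of the vestibulo-cerebellum, and of the petrous temporal bone (PTB) that encloses them, from wild-type (WT) and Tbx1+/- mice at postnatal day 5.5. The Tbx1+/- mice carried a germline heterozygous loss of the T-box factor Tbx1 on a C57BL/6J background, and WT mice were the controls. Each of the 8 libraries (2 per genotype and tissue) pooled 5 mice, and replicate numbers mark separate batches of animals, so that p-values below measure the spread between pooled libraries and not between mice. All values are raw counts of unique molecular identifiers (UMIs), summed per library over the nuclei of each cell type that the authors annotated, and given per 1000000 UMIs of those nuclei (CPM).

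The 4 PF/F libraries held 57958 barcodes, of which 48237 carried a cell type and 9721 did not. They totalled between 44713226 and 60627200 UMIs per library, with a median of 2610 to 3503 UMIs per annotated nucleus. Each pair of PF/F libraries shared between 30 and 60 barcodes of annotated nuclei. Tbx1 gave only 4 and 10 UMIs in the annotated PF/F nuclei of the WT libraries and 11 and 13 in those of the Tbx1+/- libraries, too few to check the genotype labels there. In the annotated PTB nuclei Tbx1 lay at 38.9 and 39.4 CPM in the WT libraries and at 26.3 and 35.7 CPM in the Tbx1+/- libraries.

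Of the 16 annotated PF/F types, 4 are named as GABAergic. These are differentiated GABA interneurons (Diff.GABA.interneuron, 3601 nuclei), GABA interneuron progenitors (GABA.interneuron.progenitor, 2049 nuclei), a class named GABA.interneuron (406 nuclei) and Purkinje cells (1299 nuclei), the inhibitory output neurons of the cerebellar cortex. Together they made up 13.7% to 16.6% of the annotated nuclei and 16.9% to 21.8% of their UMIs. Marker genes fitted the names of Purkinje cells and, by Pax2 and Kit, of differentiated GABA interneurons, and none was set beforehand for the progenitors. Car8, Foxp2, Calb1, Pcp2 and Skor2 marked Purkinje cells, where Calb1, a calcium-binding protein, reached 999 ± 85.1 CPM (SD, n = 4). Pax2 and the receptor Kit were highest in differentiated GABA interneurons at 571 ± 71.6 and 591 ± 72.8 CPM. The progenitor factor Neurog2, picked from the pathway lists after its values were seen, was highest in GABA interneuron progenitors at 49.2 ± 9.20 CPM. The astroglial marker Slc1a3 and the granule lineage marker Pax6 were also found in those progenitors, at levels given below. The small GABA.interneuron class held Gad2 and Sorcs3 (282 ± 25.2 CPM), but its Pax2 level was 10.6 CPM and its Kit level 65.4 CPM. Of the 3 interneuron markers only Sorcs3 was thus high in the GABA.interneuron class. This small class is called the GABA.interneuron class throughout. Its nuclei numbered 101 and 79 in the WT libraries and 49 and 177 in the Tbx1+/- libraries.

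Sequences before a transcript start of 4 of the genes are shown because the classes described here differ in the AP-2 factors Tfap2a and Tfap2b, in LIM homeodomain factors and in the bHLH factor Ptf1a, and letters of the kinds such factors bind stand in these windows. Each window is the 250 bases before a RefSeq transcript start on build GRCm38.p6, 5′ to 3′ on the strand of the gene, and bases within exons of the GENCODE annotation are left out of what is printed. The window of Gad1 is chr2:70561879-70562128 on the plus strand, that of Gad2 is chr2:22622077-22622326 on the plus strand, that of Slc32a1 is chr2:158610508-158610757 on the plus strand, and that of Tfap2a, the first of its listed starts, is chr13:40734921-40735170 on the minus strand. The Slc32a1 window lies outside its annotated gene, and its start lies 9 bases before the gene's 5′ end. The Gad2 start lies 122 bases after the 5′ end of the gene, so 122 bases of its window are exonic and the 128 bases before the gene are printed (chr2:22622077-22622204). The Gad1 and Tfap2a windows lie wholly inside their genes, with starts 9057 and 3456 bases after the 5′ end. Of the Gad1 window 87 bases are exonic, and the 163 bases printed (chr2:70561879-70562041) and all of the Tfap2a window are intronic. Capitals mark the matches to GCCNNNGGC, a palindrome bound by AP-2 factors, to TAATTA, a homeodomain core, and to CACCTG, an E-box of the kind bound by bHLH factors.
Gad1: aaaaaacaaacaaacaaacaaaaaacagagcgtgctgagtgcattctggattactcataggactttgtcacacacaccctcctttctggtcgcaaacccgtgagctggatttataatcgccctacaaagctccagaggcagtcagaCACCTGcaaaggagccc
Gad2: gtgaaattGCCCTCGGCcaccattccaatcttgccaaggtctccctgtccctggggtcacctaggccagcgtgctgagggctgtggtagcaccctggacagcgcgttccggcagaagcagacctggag
Slc32a1: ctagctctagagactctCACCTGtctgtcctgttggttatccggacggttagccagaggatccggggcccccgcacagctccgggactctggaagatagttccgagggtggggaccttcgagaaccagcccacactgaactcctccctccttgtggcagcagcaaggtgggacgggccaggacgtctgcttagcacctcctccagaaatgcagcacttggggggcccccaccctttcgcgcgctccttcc
Tfap2a: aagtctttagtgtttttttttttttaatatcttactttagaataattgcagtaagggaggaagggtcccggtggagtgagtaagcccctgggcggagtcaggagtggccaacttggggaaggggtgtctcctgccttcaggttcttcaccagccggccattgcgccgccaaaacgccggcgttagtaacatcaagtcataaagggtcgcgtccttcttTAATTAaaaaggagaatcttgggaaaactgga
Both strands were searched in the windows of 8 of the 9 genes, with Lhx5 not in the table used, and in 32851 windows of the same length over all genes. GCCNNNGGC stood in 13.7% of all windows and, of the 8 genes, in Gad2 alone, at 242 bases before the start and at 121 bases, where the match lies in the exon and is not printed. CACCTG stood in 17.2% of all windows and in those of Gad1, at 104 bases before the start, and Slc32a1, at 233 bases. TAATTA stood in 4.84% of all windows and in that of Tfap2a, at 32 bases before the start. A match is a match of letters only, and no binding was measured.

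GABA synthesis and vesicular loading marked the differentiated GABAergic classes. Gad1 was highest in differentiated GABA interneurons, whereas Gad2 was highest in the GABA.interneuron class together with differentiated GABA interneurons, and Slc32a1 was highest in the same pair of classes. All 3 were low in GABA interneuron progenitors. The levels of all 9 genes are drawn in the heat map of levels by type.

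**Figure D1:**
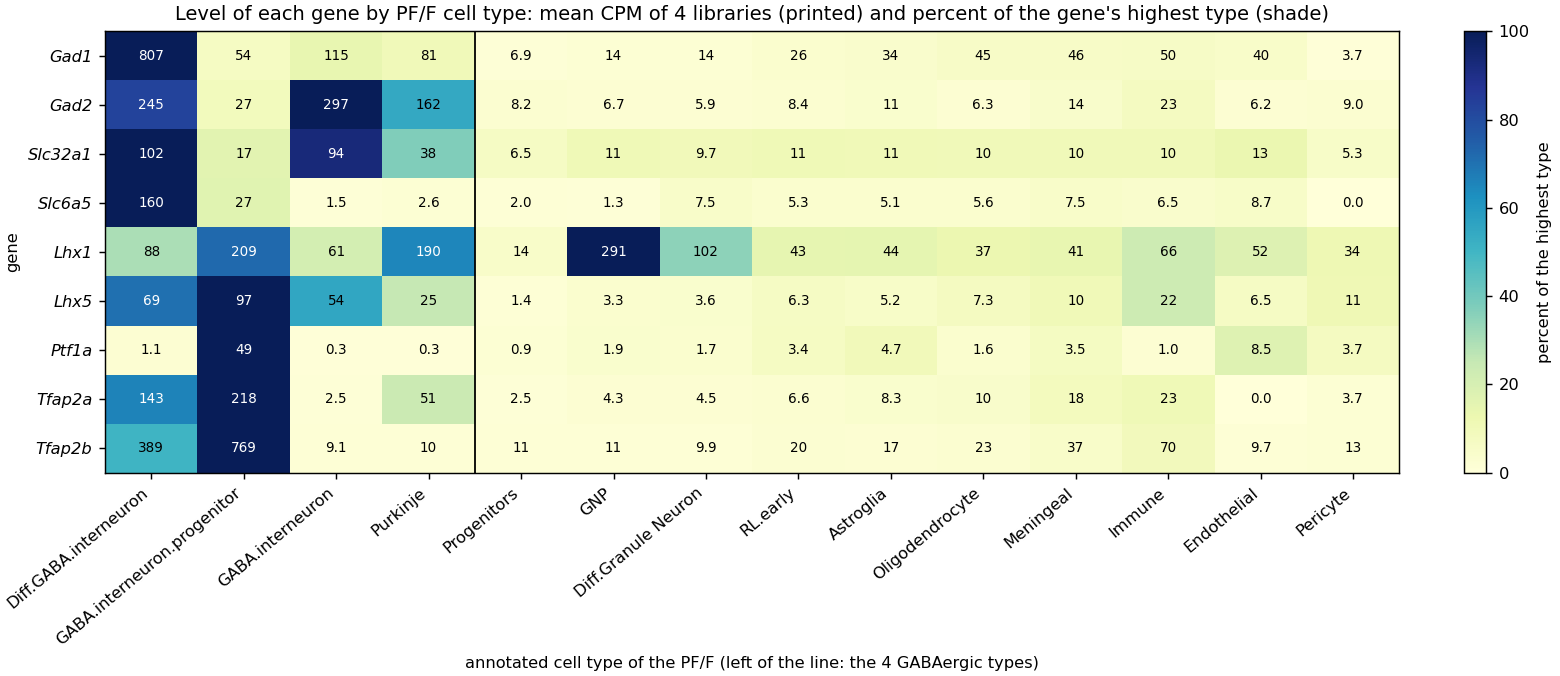
Level of the 9 genes in the annotated PF/F cell types, with 2 of the 16 not drawn, as the mean CPM over the 4 libraries of both genotypes, printed in each cell, with the shade giving the level as a percent of that gene's highest type. Gad1 peaks in Diff.GABA.interneuron (807 CPM), Gad2 in GABA.interneuron (297 CPM), Lhx1 in GNP (291 CPM), and Ptf1a, Tfap2a and Tfap2b in GABA.interneuron.progenitor (48.7, 218 and 769 CPM).

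Gad1 (ENSMUSG00000070880, chr2:70553072-70602014, plus strand, GRCm38) encodes GAD67, the glutamate decarboxylase that supplies most basal GABA. In differentiated GABA interneurons it lay at 805 and 780 CPM in the WT libraries and at 893 and 750 CPM in the Tbx1+/- libraries, a mean of 807 ± 61.6 (SD, n = 4). These values did not overlap those of any other type. The GABA.interneuron class was next at 115 ± 31.7 CPM, followed by Purkinje cells at 81.2 ± 5.14 CPM, and the libraries of this pair overlapped. GABA interneuron progenitors held 53.7 ± 4.54 CPM, below every Purkinje library and overlapping the types beneath. Differentiated granule neurons, glutamatergic cells that gave the background level here, held 14.3 CPM, which was 56.6 times less than differentiated GABA interneurons. By nuclei, 88.2% of differentiated GABA interneurons (range over libraries 87.3% to 89.9%) had a Gad1 UMI, against 3.77% of differentiated granule neurons, at median depths of 3083 to 4141 and 2572 to 3483 UMIs. With each nucleus thinned to 1500 UMIs the shares were 66.0% and 1.90%, and thinning placed the GABA.interneuron class (12.3%) and Purkinje cells (10.5%) far closer to the background than the 50.8% and 40.4% of their deeper, unthinned nuclei.

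Gad2 (ENSMUSG00000026787, chr2:22622205-22693874, plus strand) encodes GAD65, the decarboxylase associated with synaptic vesicles. In the GABA.interneuron class it lay at 294 and 310 CPM in WT and at 268 and 317 CPM in Tbx1+/- libraries (mean 297 ± 21.9). Differentiated GABA interneurons held 205 and 276 CPM in WT and 230 and 270.5 CPM in Tbx1+/- libraries (mean 245 ± 33.9). These classes overlapped, while Purkinje cells, at 149, 151, 164 and 184 CPM, lay below both and above all other types. GABA interneuron progenitors were at 26.6 ± 2.77 CPM and differentiated granule neurons at 5.87 CPM. After thinning, 31.7% of the GABA.interneuron class, 26.9% of differentiated GABA interneurons and 20.6% of Purkinje cells had a Gad2 UMI, against 0.858% of differentiated granule neurons, while the unthinned shares were 83.2%, 49.3%, 57.2% and 1.84%. Over the level in differentiated granule neurons, Gad2 was 27.6 times higher in Purkinje cells and 50.6 times higher in the GABA.interneuron class, where Gad1 was 5.70 and 8.05 times higher.

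The balance of the 2 enzymes set Purkinje cells and the GABA.interneuron class apart from differentiated GABA interneurons and their progenitors. The ratio of Gad2 to Gad1 UMIs within a library was 0.306 in differentiated GABA interneurons (range 0.254 to 0.361 over the 4 libraries) and 0.501 in GABA interneuron progenitors (0.414 to 0.585). It was 2.00 in Purkinje cells (1.75 to 2.28) and 2.79 in the GABA.interneuron class (1.92 to 3.80). Every library of the latter pair lay above every library of the former pair, and Purkinje cells and the GABA.interneuron class overlapped. In differentiated granule neurons the ratio was 0.417 (0.363 to 0.543) and in granule neuron progenitors 0.504 (0.435 to 0.590). Both ranges overlapped that of the GABA interneuron progenitors, so a ratio below 1 was not particular to GABAergic classes. A ratio of this kind compares types and not the amounts of the 2 mRNAs, since transcript length and priming in introns enter each gene differently.

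Slc32a1 (ENSMUSG00000037771, chr2:158610767-158615748, plus strand), the vesicular inhibitory amino acid transporter, was found at 99.3 and 94.6 CPM in differentiated GABA interneurons of the WT libraries and at 116 and 96.1 CPM in those of the Tbx1+/- libraries (mean 102 ± 10.0). The GABA.interneuron class overlapped these values but spread widely (mean 94.1 ± 45.0), with 115 and 51.2 CPM in WT and 147 and 62.9 CPM in Tbx1+/- libraries. In that class both libraries of batch 1 exceeded both of batch 2. Purkinje cells held 42.4 and 25.1 CPM in WT and 47.3 and 36.6 CPM in Tbx1+/- libraries, and GABA interneuron progenitors 16.6 ± 4.04 CPM. The background in differentiated granule neurons was comparatively high for this gene, at 9.71 CPM, and 60.9% ± 4.39 of its UMIs came from the 4 GABAergic types.

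Slc6a5 (ENSMUSG00000039728, chr7:49910146-49963856, plus strand), the neuronal glycine transporter GlyT2, had a high level in a single class. Differentiated GABA interneurons held 152 and 170 CPM in WT and 149 and 169 CPM in Tbx1+/- libraries (mean 160 ± 11.2), and no library of any other type reached this level. GABA interneuron progenitors held 26.8 ± 3.62 CPM. In Purkinje cells only 25 Slc6a5 UMIs and in the GABA.interneuron class only 3 were counted over the 4 libraries, levels below the 7.51 CPM of differentiated granule neurons. The ratio of Slc6a5 to Slc32a1 UMIs was 1.59 (1.28 to 1.80) in differentiated GABA interneurons and 1.71 (1.30 to 2.56) in their progenitors, but 0.0735 (0.0244 to 0.107) in Purkinje cells and 0.0126 (0 to 0.0263) in the GABA.interneuron class. With Slc6a5 below the granule level in Purkinje cells and the GABA.interneuron class, their ratios are at most upper limits. The plot of UMI ratios by type sets these side by side with the other 3 pairs.

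**Figure D2:**
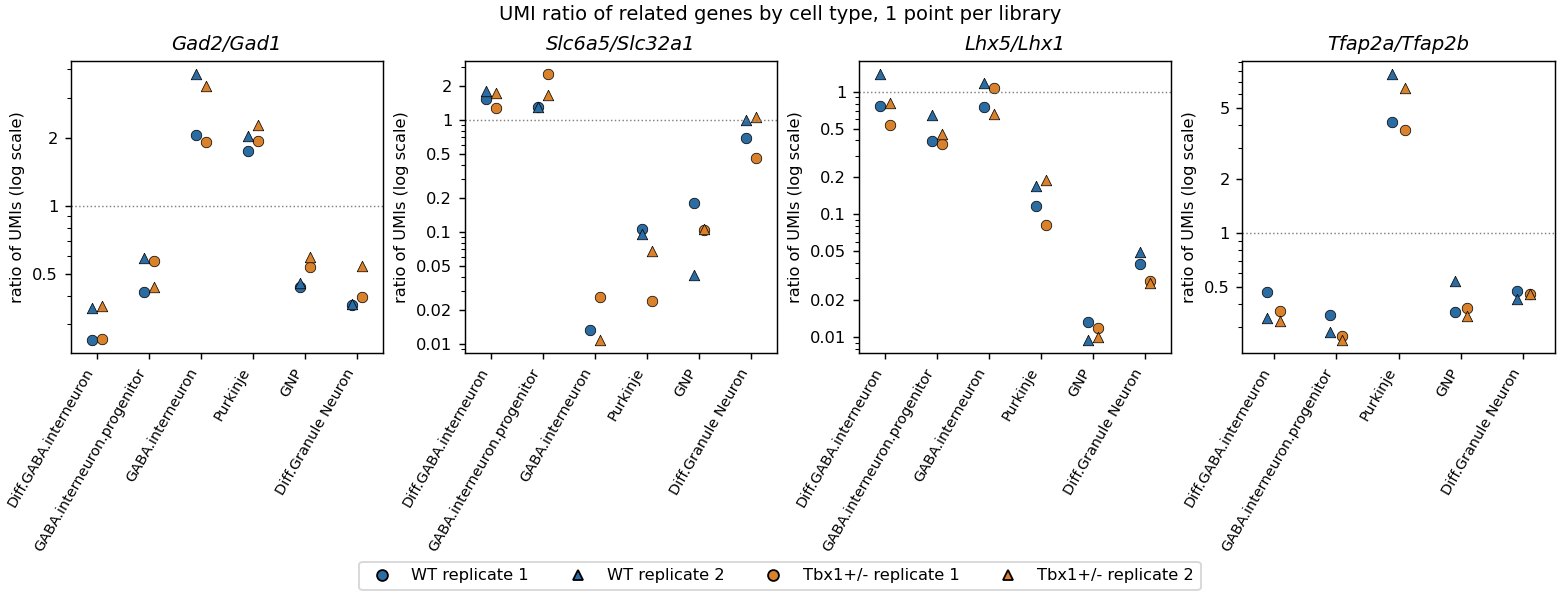
Ratios of summed UMIs of 2 genes in the GABAergic and granule types, on a log axis, with 1 point per PF/F library, coloured by genotype and shaped by replicate. Gad2/Gad1 is below 1 in differentiated GABA interneurons (0.306) and their progenitors and above 1 in Purkinje cells (2.00) and the GABA.interneuron class (2.79), and a library with a ratio of 0 is not drawn.

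The LIM homeodomain pair divided by lineage. Lhx1 was not confined to GABAergic nuclei, since its highest level was in granule neuron progenitors (GNPs), whereas Lhx5 was near background in the granule lineage. Lhx1 (ENSMUSG00000018698, chr11:84518284-84525535, minus strand) lay at 328 and 236 CPM in GNPs of the WT libraries and at 367 and 234 CPM in those of the Tbx1+/- libraries. GABA interneuron progenitors held 209 ± 21.0 CPM and Purkinje cells 190 ± 48.1 CPM, and each overlapped its neighbour in that order. Differentiated granule neurons held 102 ± 30.8 CPM and differentiated GABA interneurons 87.5 ± 33.1 CPM. Over all annotated nuclei Lhx1 lay at 136 CPM in the WT and 168 CPM in the Tbx1+/- library of batch 1 and at 95.4 and 88.7 CPM in those of batch 2. Both libraries of batch 1 thus lay above both of batch 2, which was not tested. After thinning, 33.6% of GNPs, 25.7% of GABA interneuron progenitors and 24.1% of Purkinje cells had an Lhx1 UMI, and the 14.2% of differentiated granule neurons is not a background for this gene.

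Lhx5 (ENSMUSG00000029595, chr5:120431699-120441223, plus strand) lay at 78.3 and 135 CPM in GABA interneuron progenitors of the WT libraries and at 88.8 and 87.2 CPM in those of the Tbx1+/- libraries. Differentiated GABA interneurons held 80.2 and 72.6 CPM in WT and 67.0 and 55.3 CPM in Tbx1+/- libraries, and the GABA.interneuron class 62.8, 56.0, 62.1 and 34.2 CPM. Differentiated GABA interneurons overlapped both of the others, which did not overlap each other, and every library of the 3 classes lay above Purkinje cells at 24.7 ± 3.84 CPM. GNPs and differentiated granule neurons held 3.32 and 3.63 CPM. The ratio of Lhx5 to Lhx1 UMIs was 0.875 in differentiated GABA interneurons (0.540 to 1.38 over the 4 libraries), 0.909 in the GABA.interneuron class (0.658 to 1.17) and 0.468 in the progenitors (0.371 to 0.650), and the range of differentiated GABA interneurons overlapped both of the others. It was 0.139 in Purkinje cells (0.0821 to 0.189) and 0.0112 in GNPs (0.00945 to 0.0133), below every library of those 3 classes.

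Ptf1a (ENSMUSG00000026735, chr2:19445663-19447501, plus strand), which specifies the GABAergic lineage, had the fewest UMIs of the 9 genes and was highest in the progenitors. Of its 678 UMIs in annotated nuclei, 321 lay in GABA interneuron progenitors, where it reached 56.5 and 50.6 CPM in WT and 38.8 and 49.1 CPM in Tbx1+/- libraries. No library of any other type with more than a few UMIs came close. Astroglia held 123 UMIs at 4.68 CPM, differentiated GABA interneurons were at 1.11 CPM and Purkinje cells held 4 UMIs, all beside a background of 1.66 CPM in differentiated granule neurons. A Ptf1a UMI was found in 13.3% of the progenitors (10.1% to 15.2%) and in 0.555% of differentiated granule neurons, or in 6.99% and 0.251% after thinning.

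The AP-2 factors were highest in progenitors, remained present in differentiated GABA interneurons and differed from each other in Purkinje cells. Tfap2a (ENSMUSG00000021359, chr13:40715302-40738376, minus strand) lay at 219 and 256 CPM in GABA interneuron progenitors of the WT libraries and at 186 and 209 CPM in those of the Tbx1+/- libraries. Differentiated GABA interneurons held 143 ± 11.4 CPM and Purkinje cells between 49.5 and 52.5 CPM, and no 2 of these 3 types overlapped. Tfap2b (ENSMUSG00000025927, chr1:19208914-19238576, plus strand) lay at 630 and 919 CPM in the progenitors of WT libraries and at 699 and 828.5 CPM in those of Tbx1+/- libraries, and at 389 ± 34.4 CPM in differentiated GABA interneurons. In Purkinje cells Tfap2b lay between 6.78 and 13.3 CPM, about the 9.87 CPM of differentiated granule neurons, whereas Tfap2a there was 11.5 times its granule level. The ratio of Tfap2a to Tfap2b UMIs was 0.286 (0.252 to 0.347) in progenitors and 0.372 (0.323 to 0.467) in differentiated GABA interneurons. In Purkinje cells it lay between 3.78 and 7.71, over a Tfap2b level not above that of granule neurons, so these values are at most lower limits. The means of the GABA.interneuron class lay below the granule level for both factors, with 7 Tfap2a and 26 Tfap2b UMIs in all. A Tfap2b UMI was found in 73.3% of progenitors, 63.2% of differentiated GABA interneurons and 2.49% of differentiated granule neurons, or in 58.1%, 40.2% and 1.25% after thinning.

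The 4 GABAergic types, with 16.9% to 21.8% of all UMIs, on average supplied most UMIs of 8 of the 9 genes. Their share was 82.0% ± 4.87 of Gad1, 84.9% ± 4.63 of Gad2, 75.7% ± 2.36 of Slc6a5, 76.3% ± 5.40 of Lhx5, 82.5% ± 2.24 of Tfap2a and 84.6% ± 2.41 of Tfap2b (SD, n = 4). Ptf1a stood at 50.7% ± 5.21, with most of its remaining UMIs in astroglia and differentiated granule neurons. Lhx1 was the exception at 22.3% ± 3.53, with 37.5% of its UMIs from GNPs and 30.1% from differentiated granule neurons. Of all UMIs of the gene in annotated nuclei, differentiated GABA interneurons alone gave 73.4% of Gad1 and 69.7% of Slc6a5, and Purkinje cells 20.6% of Gad2. Because a type was annotated from the expression of such genes, the differences between types are a description and were not tested. The deposited counts precede the authors' removal of free RNA, and their corrected totals for the nuclei of these classes were 0.760 to 0.826 of the raw ones at the median.

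**Figure D3:**
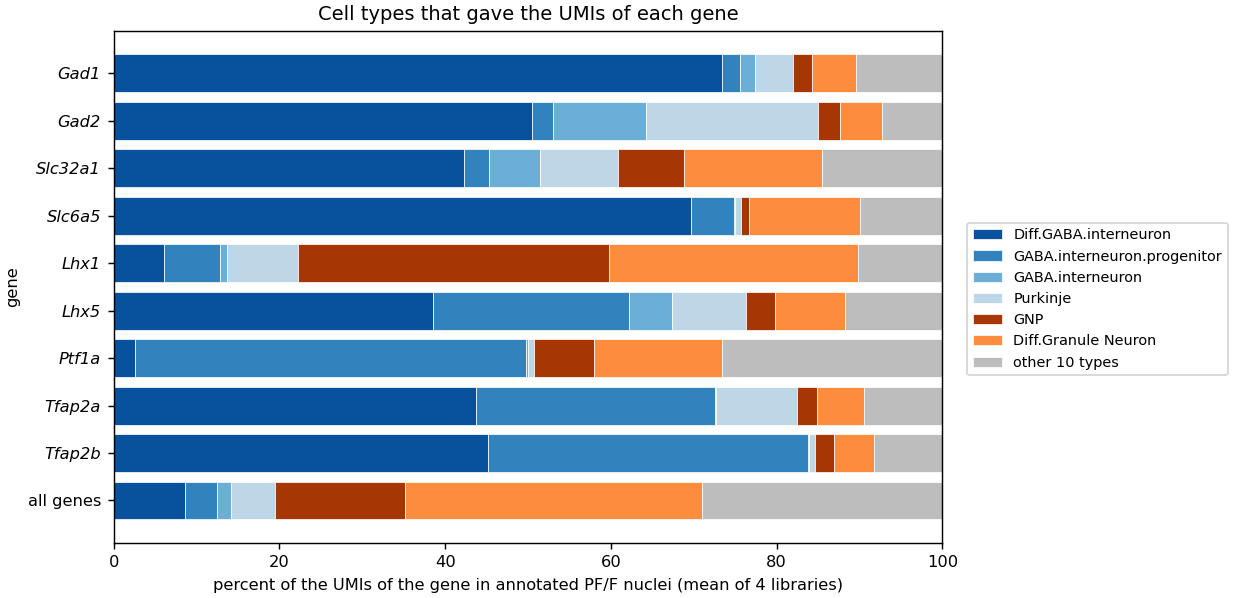
Share of each gene's UMIs in annotated PF/F nuclei that came from each group of types, in percent, as the mean of the 4 libraries, beside the same for all UMIs. Differentiated GABA interneurons give most of Gad1 (73.4%) and Slc6a5 (69.7%), and GNPs with differentiated granule neurons give most of Lhx1.

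Co-detection within nuclei thinned to 1500 UMIs was described for the 72 ordered pairs of the 9 genes in each class, and the pairs given were chosen after their values were seen. Among the 142 progenitors with a Ptf1a UMI, 13.0% had a Tfap2a UMI and 12.9% an Lhx1 UMI, against 27.7% and 26.7% of the progenitors without Ptf1a. Tfap2b was found in 55.7% and 58.2% of these sets, and its ranges over libraries overlapped. Among the 72 progenitors with an Slc6a5 UMI, 37.2% had Lhx5 and 26.5% Gad1, with ranges over libraries of 27.3% to 50.0% and 15.0% to 38.9%. In the progenitors without Slc6a5 the ranges were 10.1% to 13.3% and 4.24% to 5.88%, below every library of the former. Tfap2a was found in 40.2% of the 521 progenitors with an Lhx1 UMI and in 22.1% of those without. In differentiated GABA interneurons the 399 nuclei with an Lhx5 UMI had Tfap2a in 34.6% against 19.4%, and the 762 with Tfap2a had Gad2 in 20.4% against 28.6%. These shares are means over the 4 libraries, nuclei are not replicates, and a nucleus without a UMI at this depth may still express the gene.

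The genes most like each of the 9 in level over the 16 types were found by the Pearson correlation of log2 levels over 15705 genes with at least 10 CPM in some type. Types share libraries, and the values are given as a description. Several of the closest matches were transcripts beside or across the genes themselves. For Tfap2a the closest was Gm26688 (r = 0.873), an antisense gene that overlaps it by 7355 bases, and for Lhx1 it was Lhx1os (r = 0.922), which starts 124 bases away on the other strand. Gm14204, 43 bases from Slc32a1 on the other strand, was the closest match of Gad1 (r = 0.908) and Lhx5 (r = 0.885) and among the closest 3 of Gad2 (r = 0.905) and Slc32a1 (r = 0.906), which were closest to each other (r = 0.924). Gm26688 reached 235 ± 34.4 CPM in GABA interneuron progenitors and Gm14204 158 ± 26.6 CPM in differentiated GABA interneurons. Gad1os also crosses Gad1, over 10286 bases, and Gm27199 crosses Lhx5 over 69 bases. Whether reads were counted by strand is not given in the sources used here. How far reads of these genes and of their antisense partners were told apart was not tested. Gad1os was highest in the class RL.early at 152 ± 55.4 CPM, with 377 UMIs against 61 of Gad1. Among genes elsewhere, Slc6a5 was closest to 4930467D21Rik (r = 0.918) and Pax2 (r = 0.887), Tfap2b to Gm20395 (r = 0.920), which lies antisense within Pax2, and Fermt1 (r = 0.898), and Ptf1a to Ptx3 (r = 0.881) and Kirrel2 (r = 0.860).

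Other genes of the pathway divided the same classes. The GABA-degrading enzyme Abat was highest in GABA interneuron progenitors at 153 ± 8.21 CPM. The potassium-chloride cotransporter Slc12a5, which lowers chloride in maturing neurons, lay at 133 ± 19.1 CPM in the GABA.interneuron class and 102 ± 15.3 CPM in Purkinje cells, but at 43.6 CPM in differentiated GABA interneurons and 13.0 CPM in their progenitors. Prdm13, a target of Ptf1a in the GABAergic lineage (94.4 ± 16.8 CPM), Skor1 (94.6 ± 14.9 CPM) and the AP-2 gene Tfap2c (45.7 ± 7.03 CPM) were highest in the progenitors. Sox14 marked the GABA.interneuron class at 54.8 ± 11.1 CPM, with no other type above 1.39 CPM, and Skor2 marked Purkinje cells at 156 ± 6.18 CPM. The forebrain interneuron factors Dlx1 and Dlx2 were near 0 in all types. Markers of other cells were also present in the GABAergic classes: the astroglial transporter Slc1a3 lay at 741 ± 110 CPM in GABA interneuron progenitors, against 2318 ± 316 CPM in astroglia, and the glutamate transporter Slc17a6 at 42.5 CPM in differentiated GABA interneurons, against 274 ± 8.71 CPM in differentiated granule neurons.

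Tbx1+/- and WT libraries were then compared in each of the 4 GABAergic types and in the sum of all annotated PF/F nuclei, to ask whether the levels of these genes differed with loss of a Tbx1 copy. No call was made for any of the 9 genes in any type. The test was the edgeR quasi-likelihood test across all genes, with calls at a Benjamini-Hochberg adjusted p under 0.05 and a change above 1.5-fold. It called 0% of the 13908 genes tested in differentiated GABA interneurons, 0% of 12363 in GABA interneuron progenitors, 0% of 8707 in the GABA.interneuron class, 0.00778% of 12851 in Purkinje cells (1 gene) and 0% of 20756 over all nuclei. Of the 9 genes, 8, 9, 5, 7 and 9 had enough counts to be tested in these comparisons, and none had an unadjusted p under 0.05, a mark passed by 111 genes (0.798%), 190 (1.54%), 132 (1.52%), 138 (1.07%) and 99 (0.477%). This test left out the batch of animals. With the batch as a block, 4.18%, 4.2%, 4.96%, 4.2% and 3.02% of genes passed that mark, and those among the 9 are given by type below. The called gene was Ttr, the transthyretin gene of the choroid plexus, at 26.3 and 25.9 CPM in Purkinje cells of the WT libraries and at 89.4 and 111 CPM in those of the Tbx1+/- libraries (log2 change 1.97 ± 0.22 SE, edgeR adjusted p = 0.0256). The call held with RLE normalisation, no filter on low counts, DESeq2 and the replicate block, at log2 changes of 1.97 to 1.98. With a library left out the change was 1.77 to 2.14. The call was lost without the 8% of annotated nuclei with most UMIs in each library, where the change was 1.97 ± 0.42 at an edgeR adjusted p of 1.00. That cut was set over all types together, and 9094 genes were then tested in Purkinje cells. Ttr over all annotated nuclei was likewise higher in the Tbx1+/- libraries (131 and 288 CPM against 75.5 and 75.4), and its part in the values of the 9 genes was not tested. DESeq2 called 0, 0, 0, 1 and 0 genes, with 6, 16, 7, 14 and 29 at an unadjusted p under 0.05.

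**Figure D4:**
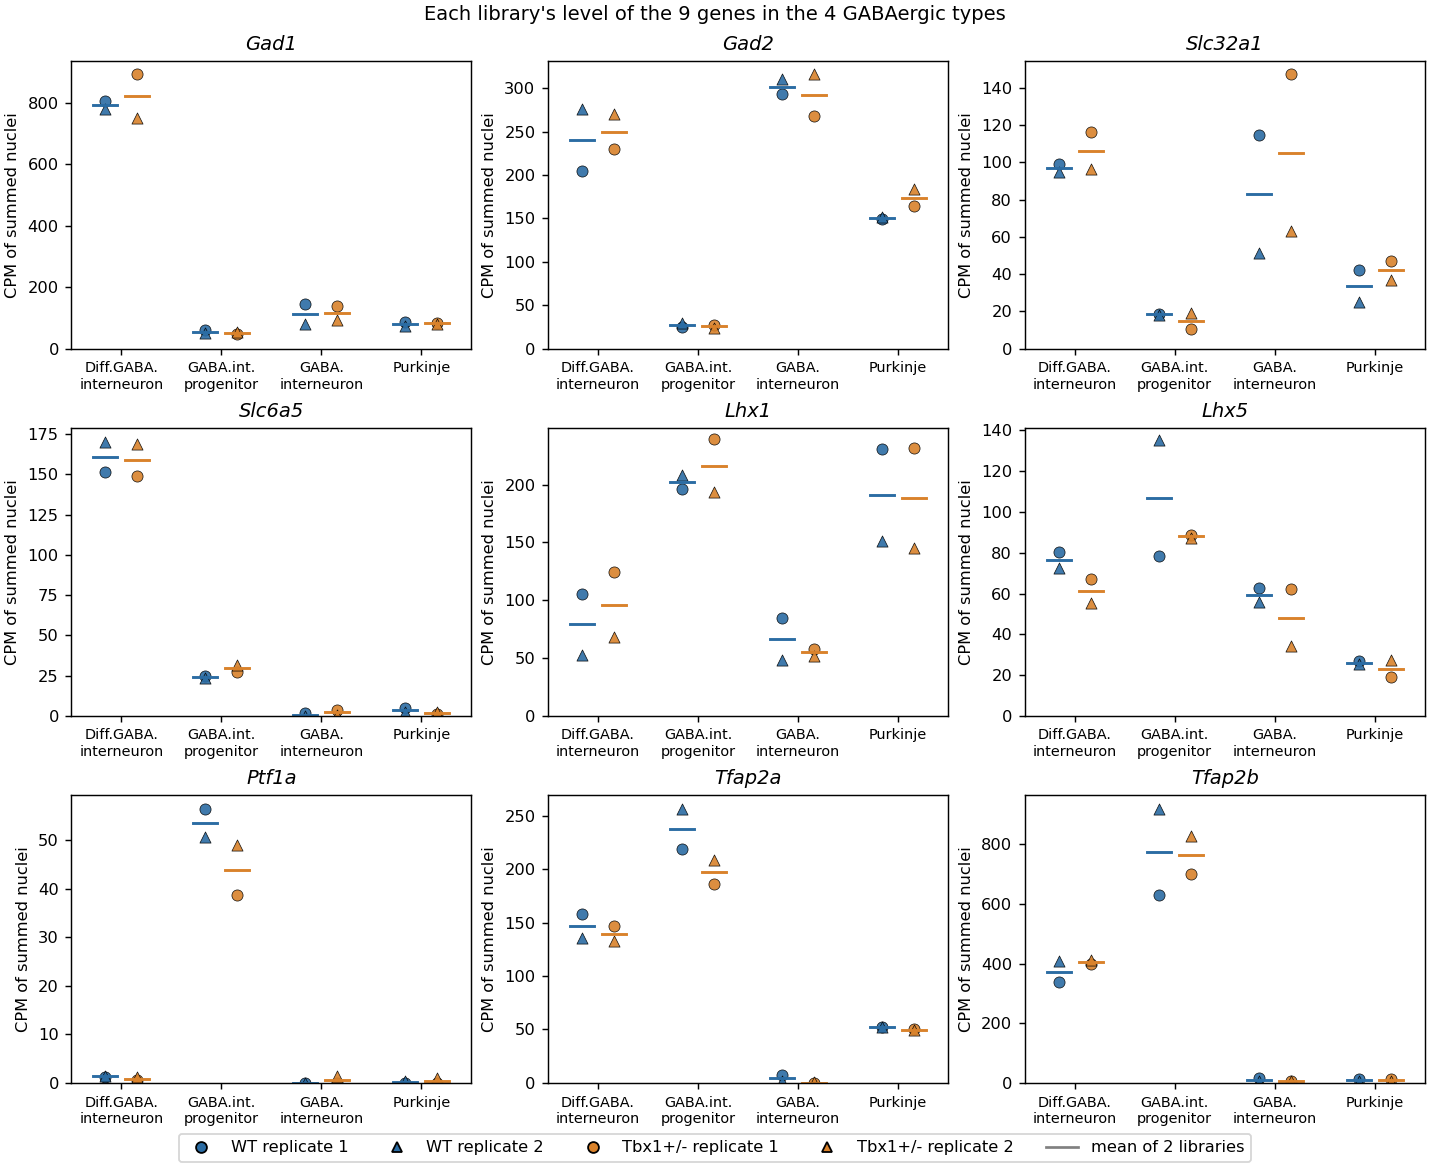
Level of each of the 9 genes in the 4 GABAergic types, in CPM on axes that start at 0, with 1 point per PF/F library, coloured by genotype (circles replicate 1, triangles replicate 2), and a line at each mean of 2 libraries. In each type the genotypes overlap for most of the genes tested there. Lhx1 in Purkinje cells lies higher in the replicate 1 libraries (231 and 232 CPM) than in the replicate 2 libraries (151 and 145 CPM) of either genotype.

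In differentiated GABA interneurons the groups did not overlap for 1 of the 8 genes tested, Lhx5, which was lower in both Tbx1+/- libraries (log2 change -0.31 ± 0.17 SE, edgeR adjusted p = 1.00). Groups did not overlap for 22.6% of all genes tested in this type, with 9.94% higher and 12.6% lower in both Tbx1+/- libraries. The median log2 change of the 8 genes was 0.06, against -0.01 over all genes, and the same medians were -0.09 against -0.01 in progenitors, -0.01 against -0.01 in the GABA.interneuron class, 0.08 against 0.00 in Purkinje cells and 0.05 against 0.00 over all nuclei. With the batch of animals as a block, edgeR gave -0.32 ± 0.12 for Lhx5 and 0.31 ± 0.11 for Lhx1, both at an unadjusted p under 0.05 and an adjusted p of 1.00. With the block 4.18% of all genes tested in this type passed that unadjusted p, against 2 of the 8. The number of genes called in this type rose from 0 to 3 with the block (Ttr, Ptgds and Il1rapl2), none of them among the 9.

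In GABA interneuron progenitors the groups did not overlap for 3 of the 9 genes, against 25.2% of all genes tested (12.8% higher and 12.4% lower in both Tbx1+/- libraries). Ptf1a (log2 change -0.29 ± 0.21) and Tfap2a (-0.26 ± 0.20) were lower in both Tbx1+/- libraries, and Slc6a5 (0.29 ± 0.24) was higher in both. All 9 had edgeR adjusted p-values of 1.00. With the block, Tfap2a alone of the 9 passed an unadjusted p of 0.05 in edgeR, at an adjusted p of 0.998, against 4.2% of all genes, and 1 gene, Ttr, was called in place of 0.

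In the GABA.interneuron class the groups overlapped for all 5 genes tested, whereas 27.2% of all genes tested did not overlap (11.5% higher and 15.7% lower). The largest change was that of Lhx5 (log2 change -0.48 ± 0.32, edgeR adjusted p = 1.00). Without the second Tbx1+/- library, which held 177 of the 406 nuclei, that change was 0.045. With the block none of the 5 genes passed an unadjusted p of 0.05 in edgeR, against 4.96% of all genes. The block called 6 genes in place of 0, none of them among the 9, and the haemoglobin genes Hba-a1, Hbb-bs and Hbb-bt and the X inactivation transcript Xist (log2 change 0.79 ± 0.13, edgeR adjusted p = 2.8e-06) were among the 6. Over all annotated nuclei Xist lay at 550 and 1289 CPM in the WT libraries and at 698 and 1529 CPM in the Tbx1+/- libraries, and the Y-linked gene Uty was also found in every library, at 100.1 to 137 CPM. The part of the erythroid and sex-linked transcripts in the values of the 9 genes was not tested.

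In Purkinje cells the groups did not overlap for 2 of 7 genes, against 23.2% of all genes (9.49% higher and 13.7% lower). Gad2 was higher in both Tbx1+/- libraries (log2 change 0.24 ± 0.20), at 164 and 184 CPM against 149 and 151, and Tfap2a was lower by less than its error (-0.05 ± 0.19). Without the 8% of nuclei with most UMIs in each library the change of Tfap2a was -0.48. That cut was set over all types together, and Purkinje nuclei were deep, with medians of 5653 to 8533 UMIs by library. The medians of all annotated nuclei were 2610 to 3503. Slc32a1 had the largest change of the 7 (0.34 ± 0.26, edgeR adjusted p = 1.00). With the block Gad2 and Slc32a1 of the 7 passed an unadjusted p of 0.05 in edgeR, at adjusted p-values of 1.00, against 4.2% of all genes, and 3 genes were called in place of 1.

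Over all annotated nuclei the groups did not overlap for 3 of the 9 genes, against 17.9% of all genes (7.56% higher and 10.3% lower). Ptf1a (log2 change -0.40 ± 0.23), Lhx5 (-0.24 ± 0.11, edgeR adjusted p = 1.00) and Tfap2a (-0.13 ± 0.11) were all lower in both Tbx1+/- libraries. With the block Ptf1a and Lhx5 of the 9 passed an unadjusted p of 0.05 in edgeR, at adjusted p-values of 1.00, against 3.02% of all genes. In such a sum, fewer nuclei of a type and less RNA per nucleus cannot be told apart. GABA interneuron progenitors, the main source of Ptf1a, made up 4.78% and 4.03% of nuclei in the WT libraries and 4.29% and 3.85% in the Tbx1+/- libraries. Differentiated GABA interneurons made up 7.39% and 7.35% against 6.80% and 8.32%, and Purkinje cells 2.44% and 3.24% against 2.22% and 3.05%. Within each batch the Tbx1+/- library had the lower share of GABA interneuron progenitors and of Purkinje cells. For differentiated GABA interneurons the order differed between batches. For 2 libraries against 2 an exact permutation test of a share cannot give a two-sided p below 0.33, so none was run on these shares.

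**Figure D5:**
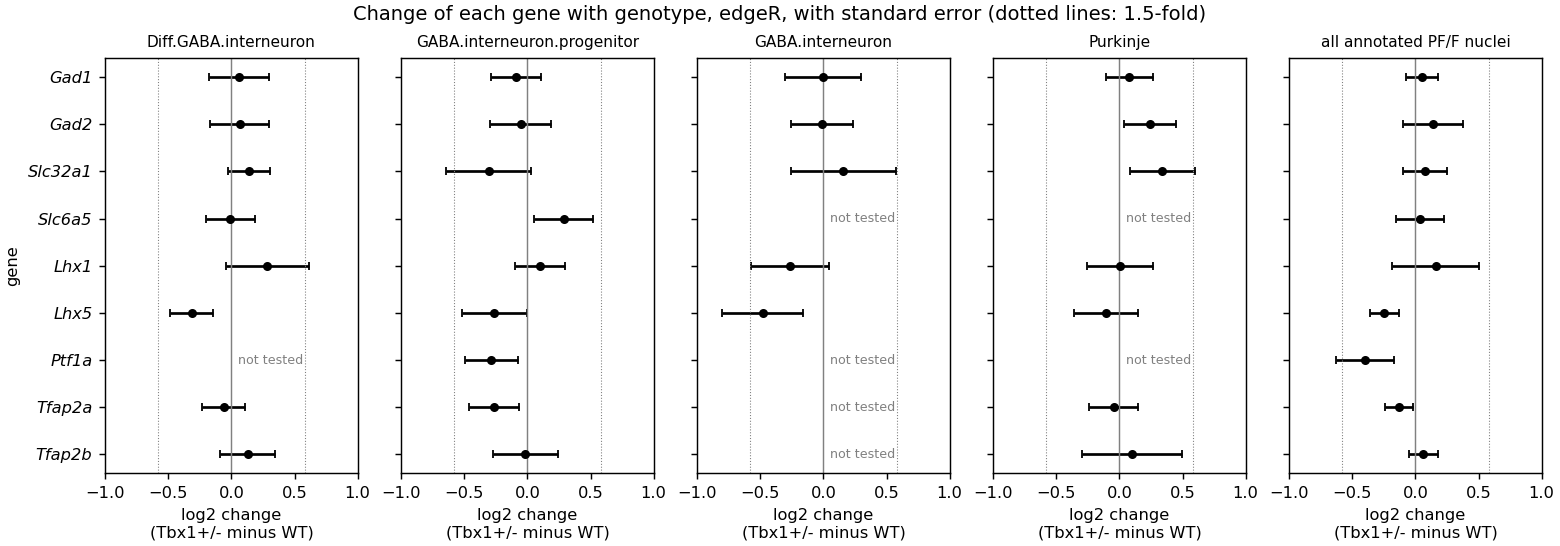
Log2 change of each tested gene in Tbx1+/- against WT libraries, by type, with bars of 1 SE derived from the F statistic of the edgeR fit across all genes. No gene passed the threshold in any type, and Lhx5 lies below 0 in differentiated GABA interneurons (-0.31) and over all annotated nuclei (-0.24).

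Whether the genotype change of a gene differed between types was tested as an interaction in edgeR, for differentiated GABA interneurons against their progenitors and against Purkinje cells. These tests called 0% of 14384 and 0% of 14844 genes, with 333 (2.32%) and 521 (3.51%) at an unadjusted p under 0.05, and none of the 9 and 8 genes tested was among them. DESeq2 called 0 and 0 genes, with 11 and 29 at an unadjusted p under 0.05. The smallest p-values were those of Slc32a1 against progenitors (difference of log2 changes 0.44 ± 0.33, edgeR adjusted p = 1.00) and Lhx1 against Purkinje cells (0.29 ± 0.16, edgeR adjusted p = 1.00).

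The other genes of the pathway gave no call either in tests that kept all libraries. Of 12 genes of GABA and glycine handling, 26 GABAergic lineage factors and 9 glutamatergic genes, 11, 11 and 7 were tested in differentiated GABA interneurons, 11, 13 and 6 in progenitors, 8, 3 and 3 in the GABA.interneuron class, 11, 7 and 6 in Purkinje cells, and 12, 21 and 9 over all nuclei. In the same order of comparisons the median log2 change was -0.02, 0.10, 0.11, -0.10 and 0.00 for GABA and glycine handling, -0.13, -0.12, -0.22, 0.04 and -0.11 for the lineage factors, and 0.25, 0.10, 0.01, 0.02 and 0.03 for the glutamatergic genes. Groups did not overlap for 3, 5, 2, 2 and 3 genes of GABA and glycine handling in that order. For the lineage factors these counts were 0, 1, 2, 0 and 7, and for the glutamatergic genes 1, 0, 0, 1 and 0. The shares over all genes tested were 22.6%, 25.2%, 27.2%, 23.2% and 17.9%. Of the 21 lineage factors tested over all nuclei, 6 were lower and 1 was higher in both Tbx1+/- libraries, against 10.3% and 7.56% of all genes. An unadjusted p under 0.05 was found for 1 gene of GABA and glycine handling in progenitors and 1 over all nuclei, against 1.54% and 0.477% of all genes tested there, and for none of the lists in the other 3 types. Slc12a2, a chloride importer of immature neurons, lay at 42.1 and 55.4 CPM in progenitors of the WT libraries and at 65.3 and 73.9 CPM in those of the Tbx1+/- libraries (log2 change 0.53 ± 0.21, edgeR adjusted p = 1.00). Slc6a13, a GABA transporter, lay at 10.2 and 10.7 CPM over all nuclei of the WT libraries and at 15.4 and 12.8 CPM in the Tbx1+/- libraries (0.45 ± 0.14, edgeR adjusted p = 1.00), and 1824 of its 2148 UMIs lay in meningeal nuclei. In the interaction tests Slc12a2 passed an unadjusted p of 0.05 against progenitors (difference of log2 changes -0.44 ± 0.20) and Barhl1, of the glutamatergic list, against Purkinje cells (0.78 ± 0.37), both at an edgeR adjusted p of 1.00 and against the 2.32% and 3.51% of all genes given above.

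How large a change these comparisons could have found was checked on simulated counts with the real gene means and library sizes and a common dispersion. No batch effect and no difference in dispersion between genes were simulated, so recovery in the real data may be lower. At a true log2 change of 1 the edgeR test recovered 38% of changed genes in differentiated GABA interneurons, 26% in progenitors, 12% in the GABA.interneuron class, 45% in Purkinje cells and 56% over all nuclei. At a log2 change of 2 it recovered 92%, 92%, 75%, 94% and 93%. A missing call therefore does not show that the levels were equal, and the changes given above for the 9 genes were smaller than those simulated.

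The annotated PTB nuclei served as tissue without cerebellar neurons. There Gad1 lay at 0.801 CPM and Gad2 at 0.295 CPM as means over the 4 libraries, and the other 7 genes lay below 0.43 CPM. Ptf1a had 0 UMIs in all 4, which allows up to 0.0686 to 0.0895 CPM per library at 3 counts, for counting error only.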

How the data were processed

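Nuclei of frozen PF/F and PTB were sequenced with 10x Chromium 3′ v3.1 chemistry in 8 libraries. Per the study's methods and the submitters' processing notes, the authors made the deposited counts with Cell Ranger 7.0.0 on mm10, introns included, as whole UMIs per gene and barcode. The authors then filtered nuclei, removed free RNA with SoupX, clustered the nuclei and annotated them. The deposited counts precede these steps, the annotation was deposited beside them, and its SoupX-corrected total per nucleus (deposited expected counts, not whole) was used only for its ratio to the raw total. No column of comparisons made by the authors was used.

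Raw UMIs were summed per library and annotated type and divided by the total of those nuclei (CPM). Sums were tested with edgeR 4.0.16 (filterByExpr, TMM, quasi-likelihood test on genotype alone, R 4.3.3), with Benjamini-Hochberg adjustment over all genes tested and calls at 0.05 and 1.5-fold. The SE of an edgeR change is its absolute value divided by the square root of the quasi-likelihood F statistic. The study had tested nuclei as replicates, and libraries were used here. Interactions were fitted on 2 types together with the library as a term. The genes named are the 9, the 3 most like each by Pearson's r of log2(CPM + 1) over the 16 types (at least 10 CPM in some type), genes of the pathway lists, cell type markers and up to 5 called genes per comparison. The 9 genes and the lists were chosen with earlier results of these data known. Which list genes were given with their levels by type, and Gad1os, was chosen after their values were seen.

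Replicate numbers mark batches of animals, per the study's methods, and same-numbered libraries deviated together from their genotype means (r over genes 0.472 in differentiated GABA interneurons, 0.365 in progenitors, 0.425 in the GABA.interneuron class, 0.426 in Purkinje cells and 0.575 over all nuclei), so blocked values stand beside the results they change. Shares of nuclei were recomputed with each nucleus thinned to 1500 UMIs, which left out 372 of 48237 nuclei. Doublets were not called here beyond the authors' filters, and an alternative left out the 8% of annotated nuclei with most UMIs in each library. The cut was set over all types together and fell unevenly on them. Genes tested went from 12851 to 9094 in Purkinje cells and from 8707 to 5039 in the GABA.interneuron class. In differentiated GABA interneurons they went from 13908 to 12987. Other alternatives were RLE normalisation, no filter on low counts, DESeq2 1.42.0 and leaving out each library. The edgeR and DESeq2 steps were tested on simulated counts with 100 genes changed by a log2 of 1 and 100 by 2. Some list genes and cell types are not reported here. Gene positions were read from the GRCm38 annotation and sequences before transcript starts from RefSeq. Intervals and limits cover counting error only.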

Additional observations from a re-analysis of the deposited data

Results flagged for a closer look

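Barcodes outside the deposited annotation were used in no comparison. In the PF/F the annotation covers the nuclei that passed the study's quality filter, and the 9721 barcodes outside it had a median of 830 to 1366.5 UMIs by library, against 2610 to 3503 in annotated nuclei. All 9 genes were found in these 9721 barcodes. Their mean level over the 4 libraries was 85.1 CPM for Gad1, 69.9 for Gad2, 30.3 for Slc32a1 and 16.5 for Slc6a5, against 95.1, 42.3, 20.9 and 20.0 CPM in annotated nuclei. For the transcription factors it was 131 CPM for Lhx1, 16.3 for Lhx5, 3.56 for Ptf1a, 26.0 for Tfap2a and 58.5 for Tfap2b, against 122, 15.4, 3.93, 28.3 and 74.5 CPM. The ratio of Gad2 to Gad1 UMIs in these barcodes was 0.841. Several of these levels depended on the weighting. As a mean over barcodes of equal weight, Gad2 lay at 38.1 CPM, Slc32a1 at 62.1 and Lhx1 at 169.9 CPM, against 31.9, 19.8 and 135 CPM in annotated nuclei weighted alike. Ptf1a lay at 8.07 against 4.66 CPM, which turned its direction.

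The PTB annotation used here holds connective tissue, cartilage and bone types only. The study also assigned types such as immune cells and neurons to PTB nuclei, so the 32101 barcodes outside the annotation include such nuclei beside those its filter removed, and the 2 kinds were not told apart here. In these barcodes the mean level of 8 of the 9 genes lay above that in annotated PTB nuclei, and no UMI of Ptf1a was counted in either. Gad1 reached 8.96 CPM and Gad2 6.89 CPM, against 0.801 and 0.295 CPM in annotated nuclei. Slc6a5 reached 3.39 CPM, Slc32a1 0.906, Tfap2a 1.34, Tfap2b 1.37 and Lhx1 0.296 CPM. Lhx5 reached 0.257 CPM (34 UMIs), with a spread between libraries as large as its mean (SD 0.270), against 0.109 CPM (16 UMIs). No cause of these levels was tested.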

How the results depend on the processing

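No alternative called any of the 9 genes: over 477 alternative values of their 55 genotype changes, the smallest edgeR adjusted p was 0.0736, for the interaction of Lhx1 against progenitors without WT replicate 1. The sign changed in 13 of 257 values that kept all libraries, all of them for changes of at most 0.21 on the log2 scale, and in 58 of 220 that left out a library. Of the changes given one by one, leaving out a library gave -0.74 to 0.045 for Lhx5 in the GABA.interneuron class, -0.10 to 0.0042 for Tfap2a in Purkinje cells and -0.044 to 1.05 for the interaction of Slc32a1 against progenitors. Counts of genes called did depend on the processing. Without the filter on low counts they were 1 in differentiated GABA interneurons, 5 in the GABA.interneuron class and 1 in the interaction against Purkinje cells, from 0 in each. With the replicate block they were 3 in differentiated GABA interneurons, 1 in progenitors, 6 in the GABA.interneuron class and 3 in Purkinje cells. Without the 8% of nuclei with most UMIs they were 0 in Purkinje cells and 1 in the interaction against them. Leaving out a library gave 1 to 10 calls in differentiated GABA interneurons, 0 to 21 in progenitors, 0 to 9 in the GABA.interneuron class, 1 to 19 in Purkinje cells, 0 to 59 in the interaction against progenitors and 0 to 14 in that against Purkinje cells. In that order the counts were 10, 21, 4, 19, 37 and 14 without WT replicate 1, 3, 3, 9, 3, 59 and 0 without WT replicate 2, 2, 0, 5, 1, 0 and 1 without Tbx1+/- replicate 1, and 1, 0, 0, 1, 0 and 0 without Tbx1+/- replicate 2. Over all annotated nuclei the count was 0 in each, with 91 to 271 genes at an unadjusted p under 0.05 in edgeR. The lone library of a genotype was then assumed to vary like the others. The cause was not tested. The block changed no other call, and the interactions already hold the library as a term.

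Among the 16 annotated types, the type with the highest level was the same for all 9 genes when each nucleus was weighted equally and without the 8% of nuclei with most UMIs. Of 144 levels, 131 and 122 moved by less than 1 SD between libraries under these alternatives. Thinning moved 99 of 144 shares of nuclei. With 2 libraries per genotype and 406 nuclei in the GABA.interneuron class, small changes may have gone undetected, and none below a log2 change of 1 was simulated. Slc6a5, with 3 UMIs in that class, was not tested there.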

Other observations

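The annotated class named Progenitors, whose leading genes of those examined were Meis2 (1525 ± 239 CPM, SD, n = 4), Slc17a6 (206 ± 47.9 CPM) and the LIM homeodomain gene Lhx9 (63.1 ± 11.9 CPM), also had the highest level of the chloride exporter Slc12a5 (167 ± 30.0 CPM). Slc17a8, a vesicular glutamate transporter, was highest in Purkinje cells at 68.8 ± 10.6 CPM, with the class RL.early next at 18.7 ± 8.51 CPM. Pax6 lay at 405 ± 77.8 CPM in GABA interneuron progenitors, and Pax3 at 1306 ± 205 CPM there and at 726 ± 104 CPM in astroglia.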
